A study of Mus musculus with 16 samples.

Results

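Potassium channel genes were described across the cortex and thalamus of mice with the retention allele of Pdgfb on 1 or on both chromosomes. The members were the protein-coding genes of the count table with a mouse symbol that starts with Kcn, leaving out Kcnj8 and Kcnj10, and with a mean of 10 or more counts over the 16 libraries. The annotation held 94 protein-coding genes with a symbol of this kind, and those not in the count table could not be described. Of 87 such genes in the table, 2 were left out by name and 11 had a lower mean, so 74 of the 21804 genes in the table were members. Their median mean count was 627, against 444 over the 14843 genes with a mean of 10 or more. The members closest above the limit were Kcne2 at a mean of 10.2 counts and Kcng3 at 13.2. Those closest below it were Kcnn4 at 7.22, Kcnrg at 6.72 and Kcnj15 at 3.98.

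The tissue came from C57BL/6 mice aged 4 months. Every animal carried at least 1 copy of the Pdgfb retention allele, which takes away the stretch of the growth factor PDGF-B that keeps it close to the vessel wall. The control genotype was Pdgfb ret/wt and the other was Pdgfb ret/ret, and no wild-type animal entered the design. Each of 8 animals, 4 per genotype, gave 1 cortex and 1 thalamus library, so each of the 4 groups of genotype and region held 4 libraries. The ret/ret thalamus pieces were calcifications cut out by their autofluorescence, and the ret/wt thalamus pieces were taken from the matching place. Genotype and the way of picking tissue cannot be told apart in the thalamus. The ret/ret region comparison likewise sets calcifications against cortex pieces without them, so region and calcification cannot be told apart there. The test of whether the region difference differs between genotypes carries the same limit.

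Potassium channels let potassium leave or enter the cell and so set the resting potential of neurons, the shape of the action potential and the firing pattern. The voltage-gated Kv families open on depolarization, the inward rectifiers and tandem-pore channels act near rest, and the calcium- and sodium-activated channels respond to ions that enter during firing. Cortical pyramidal cells and thalamic relay cells fire in different patterns, and thalamic relay cells are known for switching between bursts and single spikes.

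Library totals ran from 13415391 to 29135064 counts. The 10 marker genes of cortical excitatory neurons summed to 861 to 2658 counts per 1000000 counts (CPM) in the 8 cortex libraries and to 143.2 to 476 in the 8 thalamus libraries. The 10 marker genes of thalamic neurons summed to 165 to 488 CPM in cortex and 374 to 3466 in thalamus. No gene of either list was at 0 throughout a group. Animals c (ret/wt replicate 3) and f (ret/ret replicate 2) stood apart in both regions. Their thalamus libraries held 3289 and 3466 CPM of thalamic neuron markers, against 374 to 1124 in the other 6. Their cortex libraries held 2409 and 5523 CPM of 10 cerebellum marker genes, against 167 to 252 in the other 6. Results are therefore also given without these 2 animals where that changes them. Cell makeup also moved with region. The 8 oligodendrocyte markers summed to 1871 to 4719 CPM in cortex and 9918 to 16970 in thalamus. The 8 astrocyte markers summed to 5404 to 6202 CPM in ret/wt cortex and 2676 to 4737 in ret/wt thalamus. In ret/ret they summed to 6089 to 7640 and 3498 to 4530 CPM. Single astrocyte markers were mixed, with 1 called higher and 1 lower in ret/wt thalamus, and 0 and 2 in ret/ret. Their median log2 fold changes were 0.44 and 0.12. The 12 general neuron markers summed to 10800 to 12620 CPM in ret/wt cortex and 7055 to 10180 in ret/wt thalamus, and to 8042 to 12650 and 6211 to 9746 in ret/ret. The part of these shifts in the region differences below was not tested beyond a scaling to the 12 neuron genes. These 12 did not move together, as 1 was called higher and 3 lower in ret/wt thalamus, and 1 and 1 in ret/ret. In whole tissue, fewer cells of a type and less RNA per cell cannot be told apart.

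A family with differences in both directions was the EAG, ERG and ELK family (Kcnh genes), in which Kcnh2 was higher and Kcnh1, Kcnh4 and Kcnh7 were lower in thalamus. Their promoter windows are shown because these 4 related genes moved in opposite directions. The windows are those of RefSeq on build GRCm38.p6 and run from 250 bases before the transcription start to 50 bases after it. Kcnh2 lies at chr5:24329542-24329841 on the minus strand, Kcnh1 at chr1:192190527-192190826 on the plus strand, Kcnh4 at chr11:100759729-100760028 on the minus strand and Kcnh7 at chr2:63184238-63184537 on the minus strand. The Kcnh2 window is at an internal start that lies 22013 bases inside the GENCODE M21 gene model, measured from its 5′ end. The windows of Kcnh1, Kcnh4 and Kcnh7 lie within 164 bases of the 5′ end of theirs, so the Kcnh2 window is not the same kind of position. Sequences read 5′ to 3′ along the gene, and capitals mark the GC box letters GGGCGG, a site known to bind Sp1-type factors, on either strand.
Kcnh2: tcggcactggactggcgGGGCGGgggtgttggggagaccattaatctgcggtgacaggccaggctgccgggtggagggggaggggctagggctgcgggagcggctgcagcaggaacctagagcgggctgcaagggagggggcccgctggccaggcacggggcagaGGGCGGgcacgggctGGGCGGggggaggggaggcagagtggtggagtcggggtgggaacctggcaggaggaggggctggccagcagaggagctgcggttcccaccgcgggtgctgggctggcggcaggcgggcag
Kcnh1: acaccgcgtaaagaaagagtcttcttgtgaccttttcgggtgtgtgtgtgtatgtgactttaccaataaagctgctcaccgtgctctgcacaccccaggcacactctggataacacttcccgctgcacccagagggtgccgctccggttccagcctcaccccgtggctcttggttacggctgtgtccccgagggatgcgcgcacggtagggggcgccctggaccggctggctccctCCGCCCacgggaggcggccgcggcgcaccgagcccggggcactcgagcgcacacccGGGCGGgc
Kcnh4: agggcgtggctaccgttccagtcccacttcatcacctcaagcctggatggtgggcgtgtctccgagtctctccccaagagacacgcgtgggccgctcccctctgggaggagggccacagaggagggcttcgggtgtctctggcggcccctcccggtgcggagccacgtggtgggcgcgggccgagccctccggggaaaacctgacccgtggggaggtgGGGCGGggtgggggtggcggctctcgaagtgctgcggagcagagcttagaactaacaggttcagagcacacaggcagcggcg
Kcnh7: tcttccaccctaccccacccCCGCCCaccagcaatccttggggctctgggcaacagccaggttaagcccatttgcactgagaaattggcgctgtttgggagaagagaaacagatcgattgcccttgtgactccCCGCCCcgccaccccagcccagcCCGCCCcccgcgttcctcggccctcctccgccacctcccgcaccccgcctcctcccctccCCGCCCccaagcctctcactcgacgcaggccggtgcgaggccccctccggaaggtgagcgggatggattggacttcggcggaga

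All 4 windows were rich in G and C, at 74.3% in Kcnh2, 66.0% in Kcnh1, 68.7% in Kcnh4 and 67.7% in Kcnh7, against a median of 52.7% over the 32851 windows of the table. They held 19, 27, 23 and 21 CG dinucleotides in the same order, against a median of 7. The GC box letters occurred 3 times in Kcnh2, 2 times in Kcnh1, 1 time in Kcnh4 and 4 times in Kcnh7. GGGCGG was found in 35.7% of all windows and in 38 of the 76 windows of the 53 members that had one. Other motifs were searched on both strands as well. The TATA box, spelled TATAAA, stood in 13.6% of all windows. The TCF/LEF letters CTTTGAT stood in 3.73% of them. The T-box letters GGTGTGA stood in 3.98%. None of these was found in the 4 Kcnh windows. None of the searched letter strings contains another. The GC box letters were in 66.7% of the 9 windows of members called higher in thalamus and in 68.8% of the 16 windows of members called lower.

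The region comparison asks which channel genes differ between thalamus and cortex in each genotype, where the ret/ret thalamus pieces were calcifications. In ret/wt animals 23 of the 72 members tested were called, with adjusted p under 0.05 by the quasi-likelihood test of edgeR. Of these, 7 were higher and 16 lower in thalamus. This was 31.9% of the members, where 12.6% of all 14442 genes tested were called. By direction, 9.72% of members were called higher against 5.44% of all genes, and 22.2% lower against 7.12%. The 4 thalamus libraries lay wholly above the 4 cortex libraries for 10 members (13.9%, against 8.97% of all genes) and wholly below for 16 (22.2%, against 11%). The median log2 fold change of the members was -0.10, and that of all genes 0.03. Scaling to the 12 neuron genes moved the median of all genes to 0.43 (library totals alone moved it to 0.13) and the split of called members to 12 higher and 14 lower. With that scaling 18.9% of all genes were called, in place of 12.6%. The median of the members became 0.30, with 42 higher and 30 lower in place of 30 and 42. Leaving out both libraries of animal c gave 25 members, with 4 gained and 2 lost, where 9.88% of all genes were then called. Leaving out ret/wt thalamus replicate 2 left 14 members called, and leaving out ret/wt cortex replicate 4 left 15. The share of all genes called was not recorded for the fits without a single library.

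In ret/ret animals 14 of 72 members tested were called, 3 higher and 11 lower in thalamus. This was 19.4% of members, against 9.5% of all 14715 genes tested. By direction, 4.17% of members were called higher against 4.1% of all genes, and 15.3% lower against 5.4%. The libraries did not overlap for 5 members that were higher (6.94%, against 8.18% of all genes) and 13 that were lower (18.1%, against 9.27%). The median log2 fold change was -0.28 for members and -0.02 for all genes. Scaled to the 12 neuron genes these medians were 0.09 and 0.36, with 38 members higher and 34 lower in place of 25 and 47, and the called members were again 3 higher and 11 lower. With that scaling 7.52% of all genes were called. Leaving out both libraries of animal f gave 27 members, 5 higher and 22 lower, where 17.4% of all genes were then called. All 14 members of the full comparison were among the 27. Leaving out its cortex library alone gave 23, and DESeq2 on all 8 libraries gave 22. Leaving out thalamus replicate 4 gave 8, and leaving out thalamus replicate 1, thalamus replicate 3, cortex replicate 3 or cortex replicate 4 gave 9 each. For DESeq2 and the fits without a single library, the share of all genes called was not recorded.

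The 2 region comparisons share no library. Of the called members 13 were called in both genotypes, all in the same direction, which is 56.5% of the ret/wt calls and 92.9% of the ret/ret calls. Kcnh2, Kcnj5 and Kcnk13 were higher in thalamus in both. Kcnh1, Kcnh4, Kcnh7, Kcnip2, Kcnma1, Kcnmb4, Kcnq5, Kcns1, Kcnt2 and Kcnv1 were lower in both. Over the 71 members tested in both genotypes the log2 fold changes had the same sign for 62 (across genes, Pearson r = 0.937 and Spearman rho = 0.917, given as a description). The overlap of calls, the signs and the correlations were not computed over all genes, so they do not set the channel genes apart. No member was called in the test of whether the region difference itself differed between genotypes (below). Kcnh1, Kcnh2, Kcnh4, Kcnip2, Kcnq5, Kcns1 and Kcnv1 were past the threshold in both genotypes in each of the 17 alternatives computed for them.

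**Figure D1:**
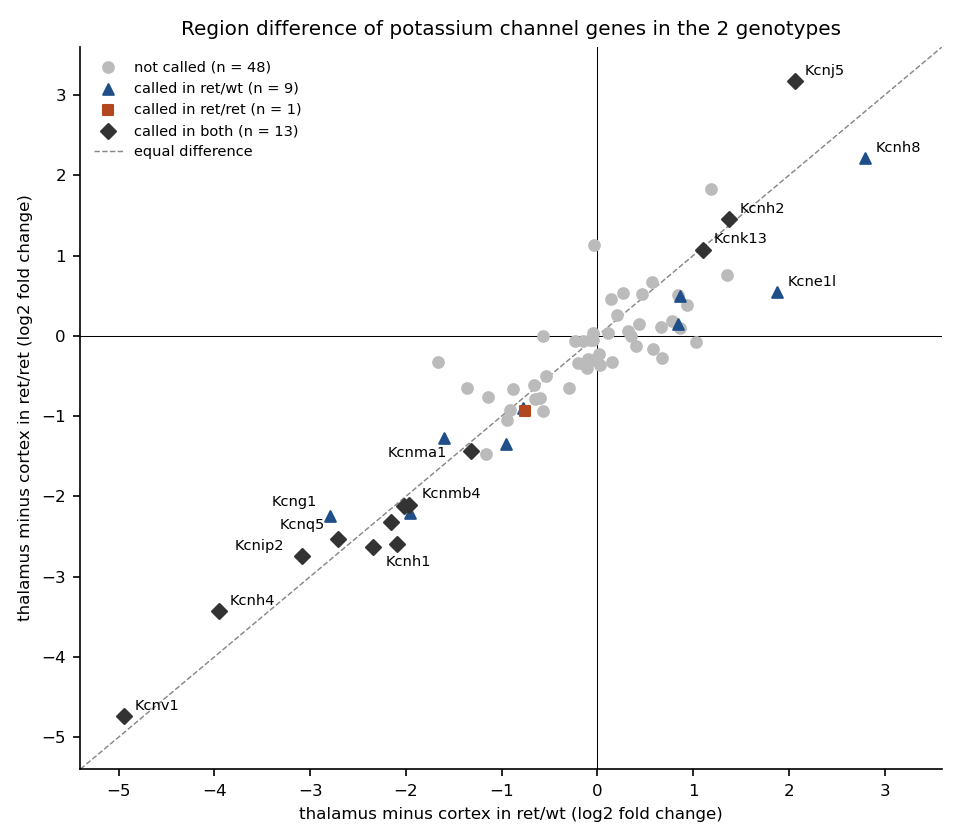
Log2 fold change of thalamus against cortex in ret/wt animals (x axis) and ret/ret animals (y axis) for the 71 members tested in both, with the line of equal difference. The 13 members called in both genotypes run along the line from Kcnv1 (-4.94 and -4.74) to Kcnj5 (2.06 and 3.18).

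The EAG, ERG and ELK channels are slowly gated Kv channels. ERG channels, of which Kcnh2 encodes the best known, carry a current that dampens firing, and EAG1, encoded by Kcnh1, is a brain channel inhibited by calcium and calmodulin. Of the 7 members tested in ret/wt, 2 rose and 3 fell in thalamus, and in ret/ret 1 rose and 3 fell. Of all genes, 12.6% were called in ret/wt and 9.5% in ret/ret. Each channel class holds few genes, and its counts were not tested against these shares. Kcnh2 (chr5:24319589-24351604, minus strand) stood at 36.3, 29.8, 17.3 and 22.8 CPM in ret/wt cortex and at 66.9, 61.1, 73.9 and 70.2 CPM in ret/wt thalamus. In the ret/ret genotype, there were 40.6, 33.5, 21.1 and 18.7 CPM in cortex and 73.1, 75.01, 70.7 and 92.5 CPM in thalamus. Every thalamus library was above every cortex library in both genotypes. The log2 fold change was 1.37 ± 0.24 (SE, adjusted p = 0.00444) in ret/wt and 1.45 ± 0.26 (SE, adjusted p = 0.0101) in ret/ret.

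Kcnh1 (chr1:192190774-192510159, plus strand) went the other way, with 175, 134, 125 and 75.7 CPM in ret/wt cortex and 34.5, 33.3, 12.9 and 19.4 CPM in ret/wt thalamus. The ret/ret values were 152, 88.6, 162 and 76.5 CPM in cortex and 21.7, 9.12, 30.7 and 15.3 CPM in thalamus. The groups did not overlap, and the log2 fold changes were -2.34 ± 0.35 (SE, adjusted p = 0.00219) and -2.64 ± 0.40 (SE, adjusted p = 0.00587). Kcnh7, which encodes the ERG3 subunit and is thus a close relative of Kcnh2, also fell. Its mean was 159 ± 86.5 CPM in ret/wt cortex and 37.1 ± 12.8 in ret/wt thalamus, and 151 ± 115 and 24.9 ± 9.17 in ret/ret (SD, n = 4). The log2 fold changes were -2.10 ± 0.41 (SE, adjusted p = 0.00793) and -2.60 ± 0.51 (SE, adjusted p = 0.0152), and without ret/ret thalamus replicate 4 the latter had an adjusted p of 0.0512. Kcnh4, an ELK-type gene, had 17.4, 11.2, 6.46 and 5.21 CPM in ret/wt cortex and 0.691, 0.776, 0.359 and 0.711 CPM in ret/wt thalamus. Its ret/ret levels were 6.03, 3.79, 13.9 and 6.64 CPM in cortex and 0.665, 0.76, 1.02 and 0.352 CPM in thalamus. Kcnh4 was thus close to 1 CPM or below in the 8 thalamus libraries, with log2 fold changes of -3.95 ± 0.48 (SE, adjusted p = 0.000695) and -3.43 ± 0.51 (SE, adjusted p = 0.00541).

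Kcnh8, another ELK-type gene, was the further member that rose in ret/wt, from 0.471, 0.365, 0.352 and 0.326 CPM in cortex to 3.11, 2.83, 3.83 and 0.775 CPM in thalamus. Its log2 fold change was 2.80 ± 0.53 (SE, adjusted p = 0.00695). In ret/ret it did not pass, at 2.21 ± 0.90 (SE, adjusted p = 0.152), although the groups did not overlap and all 4 animals had the higher value in thalamus. Kcnh5 had log2 fold changes of -1.16 and -1.47 and Kcnh6 of 0.14 and 0.46, and neither passed in either genotype.

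Because these genes changed in opposite directions, the makeup of the family differed between regions. On the scale of CPM per kilobase of exon, Kcnh1 made up 40.8% ± 4.63 of the family sum in ret/wt cortex and 13.6% ± 4.65 in ret/wt thalamus (SD, n = 4). Kcnh2 made up 13.6% ± 5.14 in ret/wt cortex and 58.0% ± 11 in ret/wt thalamus. In ret/ret Kcnh1 went from 40.6% ± 7.22 to 10.7% ± 4.86 and Kcnh2 from 16.2% ± 8.23 to 66.3% ± 7.33. The family sum itself was 44.0 ± 18.6 CPM per kilobase in ret/wt cortex and 24.6 ± 3.27 in ret/wt thalamus. In ret/ret it was 41.2 ± 17.4 in cortex and 24.3 ± 2.44 in thalamus. Among the 7 members of the family, the leading gene was therefore Kcnh1 in cortex and Kcnh2 in thalamus in both genotypes. Kcnh3 of the same family was not in the count table, so it enters neither the sum nor the shares. These shares follow from the single-gene differences above and were not tested on their own.

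**Figure D2:**
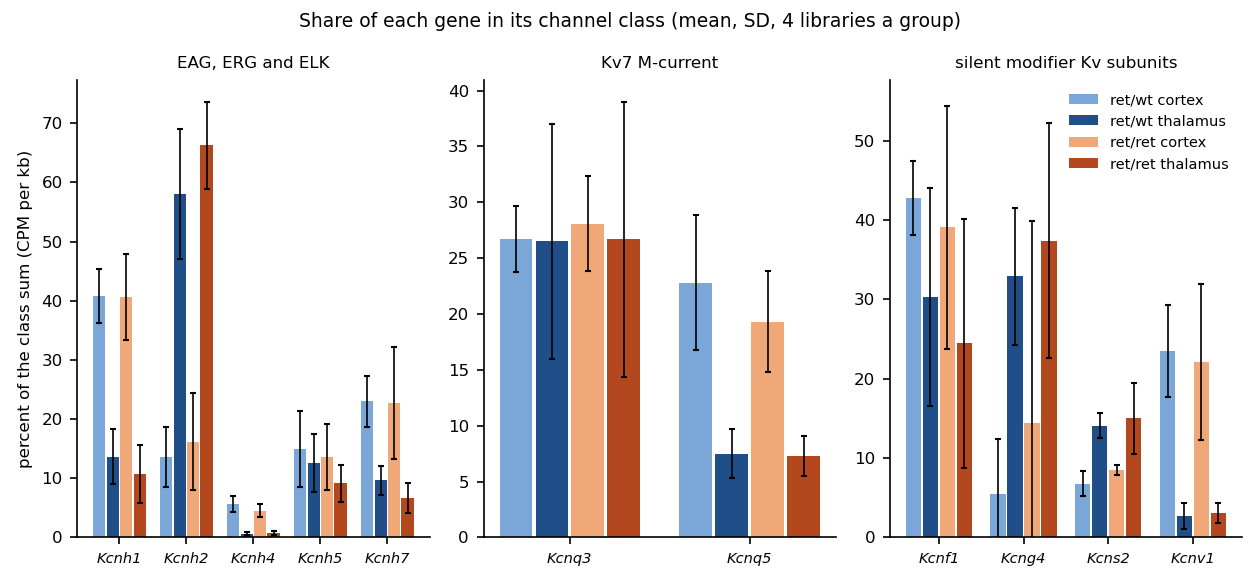
Share of single genes in the summed CPM per kilobase of their channel class (y axis, percent), as mean and SD of 4 libraries a group. Kcnh2 takes 13.6% and 16.2% of its class in the cortex groups and 58.0% and 66.3% in the thalamus groups.

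The silent modifier subunits do not form working channels alone. They join Kv2 subunits and change their gating. In ret/wt 5 of 9 tested fell and 0 rose, and in ret/ret 2 of 8 fell and 0 rose. Of all genes, 7.12% and 5.4% were called lower. Kcnv1 (chr15:45106284-45114920, minus strand), which encodes the Kv8.1 subunit, had the largest difference of any member tested in both genotypes. It stood at 147, 112, 87.9 and 83.9 CPM in ret/wt cortex and 3.76, 5.77, 1.85 and 2.46 CPM in ret/wt thalamus. For ret/ret, the libraries gave 108, 34.5, 164 and 62.9 CPM in cortex and 3.33, 2.23, 3.49 and 4.78 CPM in thalamus. The lowest cortex library was several times above the highest thalamus library. For Kcnv1 the log2 fold change was -4.94 ± 0.38 (SE, adjusted p = 8.14e-05) in ret/wt, a 30.8-fold lower level, and -4.74 ± 0.50 (SE, adjusted p = 0.00213) in ret/ret, a 26.6-fold lower level. Kcns1 fell from 16.5 ± 6.91 to 3.66 ± 1.14 CPM in ret/wt and from 12.2 ± 5.34 to 2.43 ± 0.454 in ret/ret (SD, n = 4). Its log2 fold changes were -2.15 ± 0.36 (SE, adjusted p = 0.00375) and -2.32 ± 0.34 (SE, adjusted p = 0.00541).

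Kcnf1, which encodes Kv5.1, had 187, 239, 164 and 234 CPM in ret/wt cortex and 25.99, 31.8, 125 and 27.1 CPM in ret/wt thalamus. Among ret/ret animals it was measured at 185, 54.9, 213 and 214 CPM in cortex and 19.1, 89.9, 20.4 and 14.8 CPM in thalamus. The high thalamus library in each genotype was that of animal c or f, and the low cortex library that of animal f. For Kcnf1 the log2 fold change was -1.96 ± 0.49 (SE, adjusted p = 0.0258) in ret/wt and -2.21 ± 0.64 (SE, adjusted p = 0.0608) in ret/ret. Without animal f the ret/ret value was -3.48, with an adjusted p of 0.000288, and scaled to neuron genes it was -1.84 with an adjusted p of 0.0461. Over the alternatives the ret/wt adjusted p of Kcnf1 ran from 0.000314 to 0.0725, and it missed the threshold when any 1 of 6 libraries was left out: cortex replicates 1, 2 and 4 (0.0533, 0.064 and 0.0525) and thalamus replicates 1, 2 and 4 (0.0622, 0.0725 and 0.0603). Kcng1 fell in ret/wt, with a log2 fold change of -2.79 ± 0.53 (SE, adjusted p = 0.00735). In ret/ret it was at -2.25 ± 0.63 (SE, adjusted p = 0.0539), with an adjusted p of 0.044 when the animal was a block and 0.00439 without animal f. Kcng3 fell in ret/wt at -2.53 ± 0.59 (SE, adjusted p = 0.0188) and was not tested in ret/ret for low counts. Without thalamus replicate 2 its adjusted p was 0.061, and without cortex replicate 4 it was 0.0581.

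Kcng4, also a Kv2 modifier, was not called in either genotype. Its cortex libraries were 14.7, 7.01, 49.1 and 2.55 CPM in ret/wt and 5.08, 131, 9.49 and 3.19 CPM in ret/ret, and its thalamus libraries 45.5, 32.4, 43.5 and 28.4 and 34.6, 25.3, 32.2 and 49.3. The 2 high cortex values belonged to animals c and f, the libraries with 2409 and 5523 CPM of cerebellum markers. Without these animals Kcng4 was higher in thalamus in both genotypes, at log2 fold changes of 2.15 (adjusted p = 0.0463) and 2.70 (adjusted p = 0.00454). The part of cerebellar tissue in the 2 cortex values was not tested. Kcng2 (log2 fold change -1.67 and -0.33), Kcns2 (-0.60 and -0.77) and Kcns3 (-0.07 and -0.06) did not pass. Without animals c and f Kcns2 was called lower in both genotypes, at -1.09 (adjusted p = 0.0302) and -1.42 (adjusted p = 0.00475).

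Kcnq genes encode the Kv7 channels, which carry the M-current, a slow current that is shut by muscarinic receptors and limits repetitive firing. Of 4 tested in ret/wt 1 fell, and of 5 tested in ret/ret 2 fell, among them Kcnq5 in both. The shares of all genes called lower were 7.12% and 5.4%, and these counts are too small to set against them. Kcnq5 (chr1:21398403-21961942, minus strand) had 206, 105, 109.6 and 94.4 CPM in ret/wt cortex and 23.5, 23.9, 16.02 and 14.5 CPM in ret/wt thalamus. The ret/ret animals had 78.8, 38.8, 174 and 77.6 CPM in cortex and 13.7, 17.5, 15.4 and 16.9 CPM in thalamus. All 8 thalamus libraries were below every cortex library, and the log2 fold changes were -2.71 ± 0.30 (SE, adjusted p = 0.000419) and -2.54 ± 0.40 (SE, adjusted p = 0.00655). On the per-kilobase scale Kcnq5 made up 22.8% ± 6.02 of the Kv7 sum in ret/wt cortex and 7.50% ± 2.18 in ret/wt thalamus (SD, n = 4). The ret/ret shares were 19.3% ± 4.52 and 7.27% ± 1.80.

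Kcnq3, a main M-channel subunit, did not pass. Kcnq3 was at -0.91 ± 0.40 (SE, adjusted p = 0.177) and -0.92 ± 0.56 (SE, adjusted p = 0.331). Without animals c and f it was called in both genotypes, at -1.52 (adjusted p = 0.0206) and -1.93 (adjusted p = 0.00862). The sum of the family was 72.7 ± 14.1 CPM per kilobase in ret/wt cortex and 35.7 ± 11.1 in ret/wt thalamus, and 59.1 ± 23.7 and 30.4 ± 11.4 in ret/ret.

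Auxiliary subunits bind Kv channels without forming the pore. Of 9 tested in ret/wt, 2 rose and 2 fell, and in ret/ret 0 rose and 1 fell. Of all genes, 12.6% and 9.5% were called in either direction. Kcnip2 (chr19:45791839-45816061, minus strand) encodes KChIP2, a calcium-binding partner of Kv4 channels. It stood at 107, 155, 68.8 and 142 CPM in ret/wt cortex and 12.9, 16.6, 12.6 and 12.99 CPM in ret/wt thalamus. The ret/ret libraries held 65.1, 37.99, 155 and 75.7 CPM in cortex and 12.6, 18.1, 12.7 and 6.29 CPM in thalamus. The thalamus libraries lay below all cortex libraries, at log2 fold changes of -3.09 ± 0.27 (SE, adjusted p = 0.000186) and -2.74 ± 0.46 (SE, adjusted p = 0.00786).

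The other genes of this kind rose, fell less or did not pass. Kcnip1 rose in ret/wt, from 29.8, 28.9, 46.9 and 23.1 CPM in cortex to 58.6, 59.5, 48.1 and 61.8 CPM in thalamus, at a log2 fold change of 0.84 ± 0.23 (SE, adjusted p = 0.041). With the animal as a block its adjusted p was 0.0816, and it missed the threshold when any 1 of 6 libraries was left out, namely cortex replicates 1, 2 and 4 and thalamus replicates 1, 2 and 4 (0.0695 to 0.116). Its ret/ret log2 fold change was 0.15 ± 0.35 (SE, adjusted p = 0.824). Kcnip1 overlaps Kcnmb1 on the opposite strand of chromosome 11, and whether strand was used in the counting is not given in the sources used here. Kcnip3 fell in ret/wt at -0.78 ± 0.18 (SE, adjusted p = 0.0201), with an adjusted p of 0.212 when scaled to neuron genes, and was at -0.90 ± 0.28 (SE, adjusted p = 0.0744) in ret/ret. Without animal f the ret/ret value was -1.28, with an adjusted p of 0.00497. Without single ret/wt libraries (cortex replicates 1 and 4, thalamus replicates 1 and 2) its adjusted p was 0.0513 to 0.0627. Kcnip4 did not pass, at 0.35 and 0.00. KChIP2's share of the class sum per kilobase was 14.6% ± 4.15 in ret/wt cortex and 2.07% ± 0.596 in ret/wt thalamus (SD, n = 4), and 10.3% ± 4.55 and 2.02% ± 0.533 in ret/ret.

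Kcne1l, also known as Kcne5 and encoding a small membrane-spanning subunit, rose in ret/wt from 1.65, 2.41, 5.06 and 2.82 CPM in cortex to 11.8, 9.65, 8.31 and 14.2 CPM in thalamus. The log2 fold change was 1.88 ± 0.37 (SE, adjusted p = 0.00858). In ret/ret the cortex libraries spread from 2.23 to 23.2 CPM and overlapped those of thalamus (7.33 to 20.8 CPM), at 0.55 ± 0.66 (SE, adjusted p = 0.638). The highest of them was ret/ret cortex replicate 1, which also held the highest sum of 6 hippocampus and striatum markers (639 CPM against 162 to 274 in the other 3 cortex libraries of the genotype). The part of such tissue was not tested. Kcnab2, which encodes a cytoplasmic beta subunit of Kv1 channels, was the most abundant member per kilobase in all 4 groups. It made up 9.76% of the summed level of all members in ret/wt cortex and 10.9% in ret/wt thalamus, and 8.57% and 11.5% in ret/ret. Its region difference was -0.15 ± 0.29 in ret/wt and -0.06 ± 0.28 in ret/ret (log2 ± SE) and did not pass. Kcnab1 (-0.11 and -0.40), Kcnab3 (0.86 and 0.09) and Kcne4 (1.35 and 0.76) did not pass either.

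Among the pore-forming subunits of the Kv1 to Kv4 families, 1 of 2 Kv2 members was called lower and 1 of 4 Kv3 members higher in ret/wt thalamus. In ret/ret 0 were called. Of all genes, 12.6% and 9.5% were called, and counts this small do not set these families apart. Kv1 channels set the threshold and the timing of spikes along axons, Kv2 channels carry much of the delayed rectifier current of the cell body, Kv3 channels allow fast firing and Kv4 channels carry a transient current in dendrites. No Kv1 member of 6 and no Kv4 member of 3 passed in either genotype. Kcnb2 was at -0.95 ± 0.35 (SE, adjusted p = 0.11) and -1.05 ± 0.44 (SE, adjusted p = 0.164). With the animal as a block it was called in ret/wt (adjusted p = 0.0431), and without animal f in ret/ret (adjusted p = 0.0391).

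Kcnc1 (Kv3.1) rose in ret/wt, at 250.1, 144, 177 and 126 CPM in cortex and 403, 267, 332 and 259.7 CPM in thalamus, with a log2 fold change of 0.87 ± 0.25 (SE, adjusted p = 0.0449). Over the alternatives its adjusted p ran from 0.00393 to 0.138, the latter without animal c. It missed the threshold without cortex replicate 2, 3 or 4 or thalamus replicate 1, 2 or 3 (0.0668 to 0.131). In ret/ret it was at 0.49 ± 0.26 (SE, adjusted p = 0.261). Kcnc2 was at 0.84 and 0.51, with its highest thalamus libraries in animals c (113 to 417 CPM over the 4 ret/wt thalamus libraries) and f (58.4 to 335 CPM over those of ret/ret). Kcna2, the most abundant Kv1 gene per kilobase in thalamus, had 588, 361, 476 and 275 CPM in ret/wt cortex and 639.8, 597, 620.0 and 374 CPM in ret/wt thalamus, at 0.40 ± 0.26 (SE, adjusted p = 0.362). Its ret/ret difference was -0.12 ± 0.30 (SE, adjusted p = 0.83). Kcna6 was higher in all 4 ret/wt thalamus libraries (149 to 285 CPM) than in any of ret/wt cortex (119 to 135 CPM), but did not pass, at 0.67 ± 0.23 (SE, adjusted p = 0.0896). When counts were scaled to the 12 neuron genes, Kcna2, Kcna6, Kcnab3, Kcnc2 and Kcnj16 were called higher in ret/wt thalamus, and Kcnip3 and Kcnj3 lost their call.

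The channels activated by calcium or sodium follow spikes with an outward current. Of 10 tested, 3 fell and 0 rose in each genotype, and they were the same genes, Kcnma1, Kcnmb4 and Kcnt2. Of all genes, 7.12% in ret/wt and 5.4% in ret/ret were called lower. Kcnma1 encodes the pore of the large-conductance BK channel, and Kcnmb4 its main neuronal beta subunit. Kcnma1 stood at 498, 316, 537 and 438 CPM in ret/wt cortex and 168, 198, 263 and 83.3 CPM in ret/wt thalamus. In the ret/ret genotype, there were 333, 371, 571 and 378 CPM in cortex and 77.9, 266, 136 and 132 CPM in thalamus. The groups did not overlap, with the highest thalamus values in animals c and f. The log2 fold changes were -1.32 ± 0.32 (SE, adjusted p = 0.0213) and -1.43 ± 0.35 (SE, adjusted p = 0.0343).

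Kcnmb4 stood at 63.3, 56.6, 46.2 and 47.8 CPM in ret/wt cortex and 4.14, 7.54, 33.2 and 9.43 CPM in ret/wt thalamus. For ret/ret, the libraries gave 48.1, 65.1, 53.2 and 67.7 CPM in cortex and 9.93, 31.6, 5.43 and 7.40 CPM in thalamus. Animals c and f again held the high thalamus values, still below every cortex library. The log2 fold changes were -1.97 ± 0.54 (SE, adjusted p = 0.0382) and -2.10 ± 0.51 (SE, adjusted p = 0.0327). The BK pore gene and Kcnmb4 were thus lower in thalamus in both genotypes. No other beta subunit gene was called. Kcnmb1 was at log2 fold changes of 1.19 and 1.83, from a mean of 18.5 counts. Kcnt2, a sodium-activated channel gene, fell from 30.6 ± 6.42 to 7.50 ± 3.42 CPM in ret/wt and from 28.3 ± 19.5 to 6.53 ± 3.68 in ret/ret (SD, n = 4). The log2 fold changes were -2.02 ± 0.36 (SE, adjusted p = 0.00512) and -2.12 ± 0.51 (SE, adjusted p = 0.0327). Its relative Kcnt1 was close to level, at -0.05 ± 0.20 and -0.06 ± 0.21 (log2 ± SE). Several of these calls were lost when a library was left out. Without single libraries, Kcnma1 ran up to an adjusted p of 0.0608 in ret/wt (lost without cortex replicate 1 or 3 or thalamus replicate 1 or 2) and 0.0997 in ret/ret. Kcnmb4 ran up to 0.096 in ret/wt and 0.0945 in ret/ret, and Kcnt2 up to 0.0935 in ret/ret. In ret/ret the libraries whose absence ended a call were cortex replicates 3 and 4 and thalamus replicates 1, 3 and 4 for all 3 genes, and cortex replicate 1 for Kcnma1 and Kcnmb4. In ret/wt Kcnmb4 missed the threshold when any 1 library other than thalamus replicate 3 was left out. The small-conductance genes Kcnn1, Kcnn2 and Kcnn3 did not pass, with log2 fold changes between -0.29 and 0.53 over both genotypes.

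Inward rectifiers hold the resting potential, and the GIRK type among them opens on signals from G-protein-coupled receptors. Of 9 tested in ret/wt, 1 rose and 1 fell, and in ret/ret 1 rose and 0 fell. Of all genes, 12.6% and 9.5% were called, and counts this small do not set the class apart. Kcnj5 (chr9:32314707-32344350, minus strand), which encodes GIRK4, had 0.392, 2.85, 0.747 and 0.923 CPM in ret/wt cortex and 7.38, 4.21, 3.35 and 5.30 CPM in ret/wt thalamus. Among ret/ret animals it was measured at 0.799, 0.174, 0.621 and 0.977 CPM in cortex and 5.28, 8.001, 6.11 and 3.57 CPM in thalamus. The groups did not overlap, and the log2 fold changes were 2.06 ± 0.57 (SE, adjusted p = 0.0388) and 3.18 ± 0.52 (SE, adjusted p = 0.00766). With the animal as a block the ret/wt adjusted p was 0.0592. In ret/wt it also missed the threshold without thalamus replicate 1, 2 or 4 or cortex replicate 1, 3 or 4 (0.0658 to 0.0993), and without animal c its adjusted p was 0.0951.

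Kcnj3, which encodes the GIRK1 partner subunit, went the opposite way in ret/wt, at 197, 124, 166 and 134 CPM in cortex and 68.4, 77.98, 122 and 50.3 CPM in thalamus. The log2 fold change was -0.95 ± 0.27 (SE, adjusted p = 0.0455), and the adjusted p ran from 0.00959 to 0.131 over the alternatives. It missed the threshold when any 1 ret/wt library other than thalamus replicate 3 was left out. In ret/ret the groups did not overlap and the log2 fold change was -1.35 ± 0.41 (SE, adjusted p = 0.068), with an adjusted p of 0.0421 when the animal was a block and 0.00866 without animal f. Kcnj9 (GIRK3) was at -0.66 ± 0.32 (SE, adjusted p = 0.218) and -0.79 ± 0.40 (SE, adjusted p = 0.241), and without animals c and f at -1.10 (adjusted p = 0.0481) and -1.47 (adjusted p = 0.00473). Kcnj16, which pairs with Kcnj10 in glia, was higher in thalamus in 4 of 4 animals of each genotype without overlap, from 36.6 ± 3.68 to 53.8 ± 9.30 CPM in ret/wt and from 31.3 ± 7.12 to 49.8 ± 5.01 in ret/ret. It did not pass, at 0.57 ± 0.19 (SE, adjusted p = 0.0747) and 0.67 ± 0.19 (SE, adjusted p = 0.0564), although with library totals alone the ret/wt adjusted p was 0.0477, and without animal f that of ret/ret was 0.0297. Kcnj14 did not overlap in ret/wt either (1.45 to 3.10 and 3.17 to 4.71 CPM) and did not pass (0.78 and 0.18). Kcnj2, Kcnj11, Kcnj12 and Kcnj13 did not pass in either genotype.

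Tandem-pore channels carry leak currents. Of 9 tested, 1 rose in each genotype and 0 fell, which is close to the 12.6% and 9.5% of all genes called. Kcnk13 (chr12:99964499-100062682, plus strand) encodes THIK-1, a leak channel known in microglia. It had 5.10, 5.85, 5.41 and 6.24 CPM in ret/wt cortex and 13.3, 11.98, 12.1 and 10.9 CPM in ret/wt thalamus. The ret/ret animals had 3.99, 4.71, 5.91 and 6.06 CPM in cortex and 9.49, 8.13, 10.3 and 15.5 CPM in thalamus. The groups did not overlap in either genotype, and the log2 fold changes were 1.11 ± 0.22 (SE, adjusted p = 0.00866) and 1.07 ± 0.27 (SE, adjusted p = 0.0393). The ret/ret call was lost when any 1 library other than thalamus replicate 2 was left out (adjusted p 0.0507 to 0.117). The 8 microglia markers summed to 296 to 420.2 CPM in ret/wt cortex and 294 to 370 in ret/wt thalamus, which overlapped. In ret/ret they summed to 276 to 565 and 458 to 666, and their part in the Kcnk13 difference was not tested. Kcnk1, Kcnk2, Kcnk3, Kcnk4, Kcnk5, Kcnk6, Kcnk10 and Kcnk12 did not pass. Kcnk2 (TREK-1) was lower in thalamus in 4 of 4 ret/ret animals, at -0.94 ± 0.27 (SE, adjusted p = 0.0585), and without animal f its adjusted p was 0.0144.

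**Figure D3:**
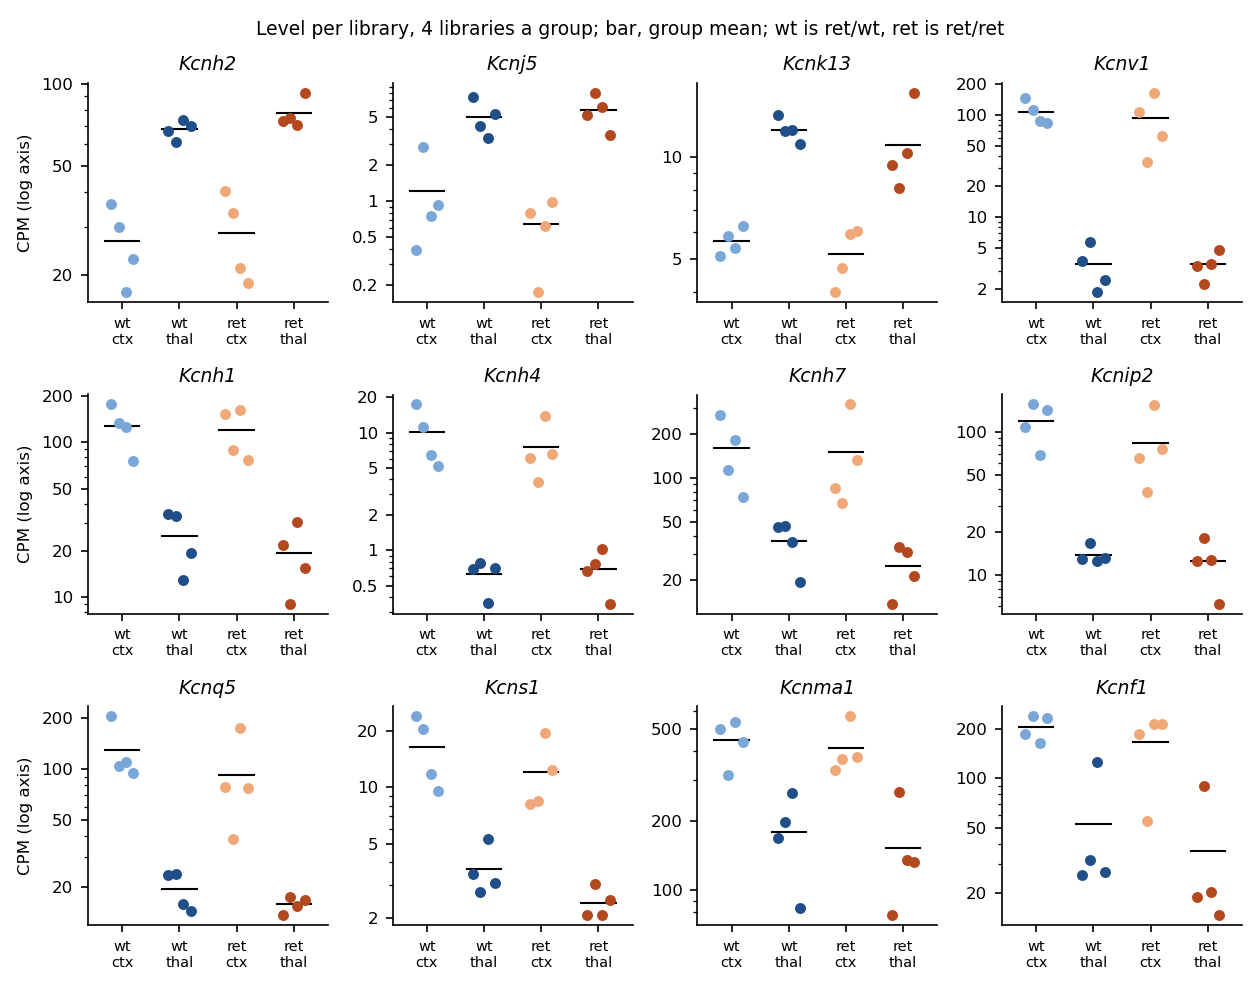
CPM in each library (log axis) of 12 members in the 4 groups, with the group mean as a bar. The 8 thalamus values of Kcnh2, Kcnj5 and Kcnk13 lie above the cortex values of the same genotype, and those of Kcnv1, Kcnh1, Kcnh4, Kcnh7, Kcnip2, Kcnq5, Kcns1 and Kcnma1 below them, while Kcnf1 overlaps in ret/ret.

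**Figure D4:**
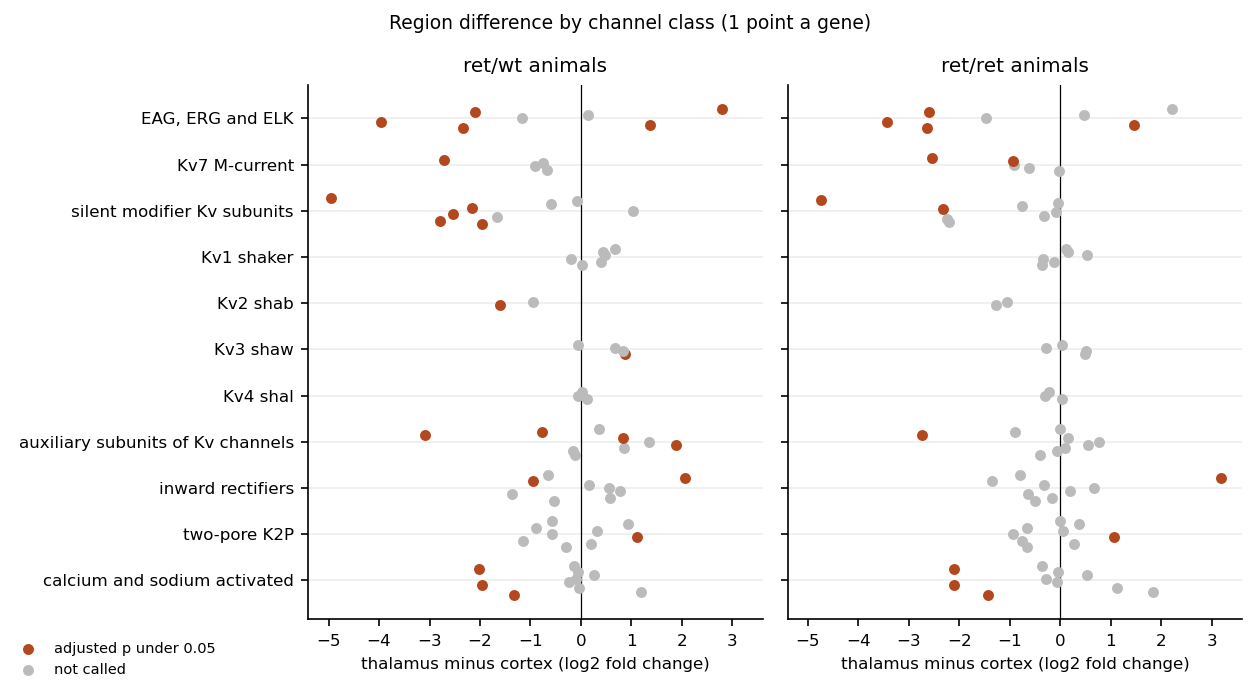
Log2 fold change of thalamus against cortex (x axis) for each member tested, by channel class (y axis), in ret/wt and ret/ret animals. Called members are coloured, and they lie on both sides of 0 in the EAG, ERG and ELK class and below 0 in the silent, Kv7 and calcium and sodium activated classes.

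Among 23 tested genes of proteins that bind or place these channels and are no members, 3 fell in ret/wt and 2 in ret/ret, and 0 rose in either, close to the 12.6% and 9.5% of all genes called. Dlg2, a scaffold that clusters Kv1 channels, was at -1.28 ± 0.35 (SE, adjusted p = 0.0377) and -1.65 ± 0.26 (SE, adjusted p = 0.00675). Lgi1, a secreted partner of the Kv1 complex, was at -1.06 ± 0.25 (SE, adjusted p = 0.0183) and -0.92 ± 0.22 (SE, adjusted p = 0.0337). Dlg4 was called in ret/wt (adjusted p = 0.0441), with 5.02, 7.01, 2.95 and 1.96 CPM in cortex and 0.561, 0, 1.02 and 0 CPM in thalamus, so it rests on very few counts. The Kv4 partners Dpp6 (0.36 and 0.34) and Dpp10 (-0.84 and -1.06) and the Kv1 partner Cntnap2 (0.61 and 0.50) did not pass.

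The genotype comparison asks whether the channel genes differ between ret/ret and ret/wt within a region. In thalamus 0 of 72 members were called by edgeR's quasi-likelihood test, where 0% of all 14767 genes were called. At an unadjusted p under 0.05 there were 2 members, both lower in ret/ret, of 581 such genes in all. The libraries of the genotypes did not overlap for 3 members (4.17%, against 2.73% of all genes), Kcnab3 and Kcnj14 lower and Kcnk6 higher in ret/ret. Kcnab3, a Kv1 beta subunit gene, had 103, 81.2, 112 and 102 CPM in ret/wt thalamus and 60.6, 52.5, 65.1 and 46.04 CPM in ret/ret thalamus. Every ret/ret value was below every ret/wt value. The log2 fold change was -0.80 ± 0.18 (SE; 95% interval -1.20 to -0.40). In edgeR the adjusted p was 0.717. DESeq2 gave an adjusted p of 0.021, the lowest of its alternatives, which ran up to 1. The share of all genes that DESeq2 called in this comparison was not recorded. In cortex the same gene differed by -0.05, and the test of the difference between regions did not call it.

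Kcnj14 had 4.71, 3.94, 3.47 and 3.17 CPM in ret/wt thalamus and 2.48, 1.39, 1.36 and 2.01 CPM in ret/ret thalamus, a log2 fold change of -1.04 ± 0.34 (SE; 95% interval -1.80 to -0.27, adjusted p = 1). The intervals of Kcna2 (-1.02 to 0.08), Kcna6 (-1.01 to 0.14) and Kcns1 (-1.31 to 0.19), the next by p, all included 0. Over all members the log2 fold change was below 0 for 52 of 72 (72.2%, against 52.9% of all genes), with a median of -0.13 against -0.02. That count was 55 (76.4%, against 56.3% of all genes) when library totals alone were used. Scaled to neuron genes it was 44 (61.1%, against 42.8% of all genes). For 33 of the 72 the 95% interval lay wholly inside a 2-fold difference either way, and for 39 it reached 2-fold or more.

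In cortex, where no calcification was taken, 0 of 70 members were called, against 0.021% of 14288 genes, and DESeq2 also called 0. At an unadjusted p under 0.05 there were 3 members of 538 such genes. Kcng3 alone had no overlap (1.43% of members, against 2.32% of all genes), at 1.73, 1.39, 1.05 and 3.48 CPM in ret/wt and 0.581, 0.087, 0.986 and 0.716 CPM in ret/ret. Its log2 fold change was -1.67 ± 0.65 (SE; 95% interval -3.13 to -0.21, adjusted p = 0.999). Kcng2 was at -1.46 ± 0.52, with 1 ret/wt library at 11.8 CPM and the other 7 between 1.44 and 5.18. Kcne1l was at 1.75 ± 0.70, Kcnj13 at -1.64 ± 0.83 and Kcnn2 at 0.32 ± 0.22 (log2 ± SE), and each had an adjusted p of 0.999. Log2 fold changes were below 0 for 45 of 70 members (64.3%, against 48.1% of all genes). When scaled to neuron genes that count was 36 (51.4%, against 31.9% of all genes). The 95% interval lay inside a 2-fold difference for 35 of the 70.

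The test of whether the region difference itself differed between genotypes, fitted on all 16 libraries, called 0 of 74 members in edgeR and 0 in DESeq2, where 0% of 15286 genes were called in edgeR. Only Kcne2 had an unadjusted p under 0.05 (of 245 such genes), at a log2 difference of 4.30 with a 95% interval of 0.14 to 8.45 and an adjusted p of 1. Its signal was almost all in ret/wt cortex replicate 4, at 5.43 CPM against at most 0.665 in the other 15 libraries, and that library also held 1141 CPM of 8 choroid plexus markers, of which Kcne2 is one. Kcng2 was at 1.34 (95% interval -0.11 to 2.79) and Kcna6 at -0.54 (-1.13 to 0.06). The interval lay inside a 2-fold difference for 11 of the 74, and for the other 63 it reached 2-fold or more, so a difference of that size in the region contrast could be missed.

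**Figure D5:**
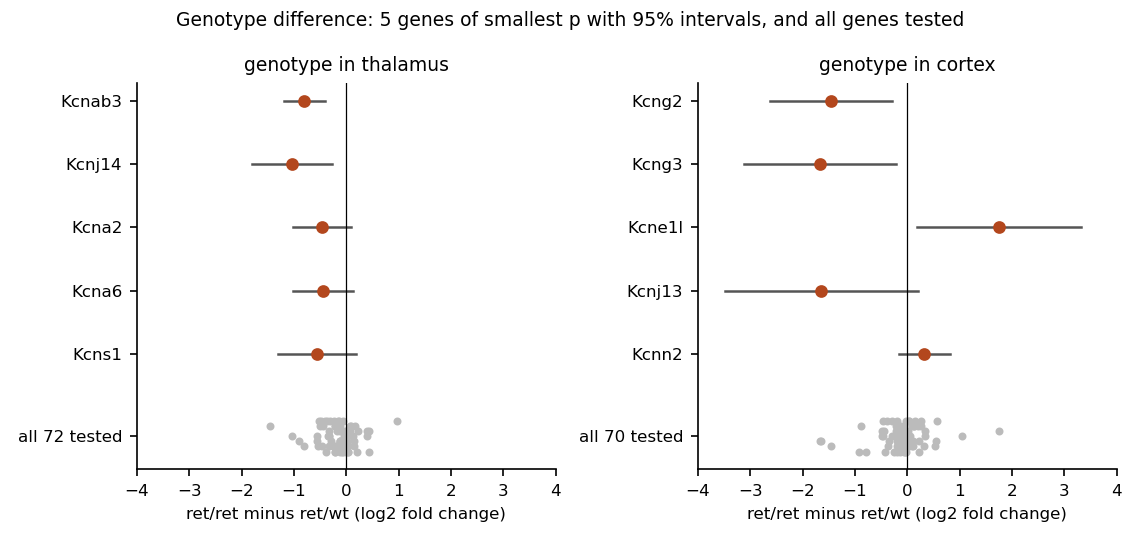
Log2 fold change of ret/ret against ret/wt (x axis) in thalamus and cortex for the 5 members of smallest p, with 95% intervals as lines, and for all members tested (grey). The intervals of Kcnab3 and Kcnj14 in thalamus and of Kcng2, Kcng3 and Kcne1l in cortex leave out 0 before adjustment.

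The members lie on 19 chromosomes, and 6 pairs lie within 200000 bases of each other. These are the pairs among Kcna1, Kcna5 and Kcna6 on chromosome 6, Kcna2 with Kcna3 on chromosome 3, Kcnip1 with Kcnmb1 and Kcnj16 with Kcnj2 on chromosome 11. In none of these pairs were both genes called in the same comparison. The members that were left out of a test by the filter on low counts were Kcne2 and Kcnq1 in the ret/wt region comparison, Kcne2 and Kcng3 in that of ret/ret and in the thalamus genotype comparison, and Kcne2, Kcnh8, Kcnmb1 and Kcnq1 in the cortex genotype comparison.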

How the data were processed

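Whole-tissue polyA RNA was sequenced in 16 stranded libraries, per the labels' protocols. The deposited values are expected counts per Ensembl gene, estimated by the authors, and 99.96% of nonzero values were not whole numbers. kallisto 0.44.0 and GRCm38.p6 are named in the submitters' processing notes, with no role stated. Symbols, biotypes and coordinates came from GENCODE M21 on GRCm38 (21612 of 21804 identifiers matched, 99.1%), and promoter windows from RefSeq on GRCm38.p6 (53 of 74 members).

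Expected counts were rounded and tested with edgeR 4.0.16 in R 4.3.3 (TMM, filterByExpr with a minimum count of 10 and total of 15, quasi-likelihood test), with Benjamini-Hochberg adjustment across the whole set of tested genes. Each comparison of groups used its own 8 libraries, and the interaction all 16. CPM of single libraries were scaled over all 16, and per-kilobase levels divide them by the exon bases of the gene. Intervals are at 95%. A floor of 3 counts is 0.103 to 0.224 CPM and covers counting error only. The fits were tested on simulated data. Figures and promoter counts were made with Python, pandas and matplotlib.

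Groups came from the labels, which give cortex and thalamus of an animal the same identifier. The region comparisons are therefore paired by animal. The residuals of libraries of the same animal correlated at a mean r of 0.0608 in ret/wt and 0.0884 in ret/ret across genes. The main fits had no block.

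The members, channel classes, marker lists and rules were chosen with earlier results of these data known. Genes were named by rule: called members at a mean log2 CPM of at least 1 without overlap, the 10 largest in each direction. To these were added the 5 smallest p-values per genotype comparison, the 3 smallest in the interaction, members of a class being described, and the members next to the count limit. Alternatives were other scalings (RLE, library totals, 12 neuron genes), DESeq2, no filter, no rounding, all 16 libraries in each fit, the animal as a block, single libraries left out, animals c and f left out, a mean of 50 counts, and an adjusted p under 0.01. Some members are counted but not reported here by name.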

Additional observations from a re-analysis of the deposited data

Results flagged for a closer look

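In 32 of the genes above, each of the 4 groups was searched for a library that stood far from the other 3, past the 95% critical value of Dixon's test. Of 128 such groups 9 had one, and chance gives about 1 in 20. Kcnf1 was at 125 CPM in ret/wt thalamus replicate 3 against 25.99 to 31.8 in the others, while ret/ret thalamus replicate 2 had 89.9 CPM, the others 14.8 to 20.4. Those are the libraries of animals c and f, with the highest thalamic neuron marker sums. Kcne2 was at 5.43 CPM in ret/wt cortex replicate 4 against at most 0.628, and Kcnj13 at 9.94 CPM in the same library against 1.41 to 2.35. That library held 1141 CPM of choroid plexus markers, against 16.4 to 67.7 in the other 3. Kcnj13 was also low in ret/wt thalamus replicate 3, at 0.12 CPM against 1.77 to 2.03. Kcna2 was low in ret/wt thalamus replicate 4, at 374 CPM against 597 to 639.8. Kcnip2 was at 16.6 CPM in ret/wt thalamus replicate 2 against at most 12.99. In ret/wt cortex replicate 1, Kcnn2 was low at 27.6 CPM (35.7 to 36.8 in the others) and Kcnq5 high at 206 CPM (94.4 to 109.6).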

How the results depend on the processing

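Direction was checked for the called members and for those picked by smallest p in the genotype comparisons and the interaction. None of these changed direction under any alternative run. Other members did change sign when counts were scaled to neuron genes. The members higher in thalamus then went from 30 to 42 of 72 in ret/wt and from 25 to 38 of 72 in ret/ret. Of members 41.7% in ret/wt and 47.2% in ret/ret were then lower, against 23.1% and 26% of all genes. The count of called members in the ret/wt region comparison (23) ran from 14 to 24 when single libraries were left out, and an adjusted p under 0.01 left 14. In ret/ret (14) it ran from 8 to 23, with 22 in DESeq2, 27 without animals c and f and 7 under 0.01. In thalamus between genotypes DESeq2 called 1 member against 0, and single libraries left out gave 0 in both genotype comparisons and in the interaction. The share of all genes called was not recorded for DESeq2, for an adjusted p under 0.01 or for the fits without a single library. All other counts stayed within 1.5 times the main count. With the animal as a block the region counts were 22 and 15, where 10.3% and 8% of all genes were called. The block ended the calls of Kcnj5 and Kcnip1 in ret/wt and 1 call in ret/ret, added Kcnb2 in ret/wt and Kcnj3 and Kcng1 in ret/ret, and changed no other call. Equal replicate numbers across genotypes are different animals. Their residuals correlated at -0.0236 in thalamus and -0.00272 in cortex, and a block on the number gave 0 calls in both. In ret/wt 14 of 23 called members, and in ret/ret 8 of 14, were past the threshold in each of 17 alternatives. Members below about 1 CPM rest on few counts, and 4 animals per genotype limit what the genotype comparisons could detect.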
